A study of Mus musculus with 4 samples.

Results

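Interferon-stimulated genes were measured in the livers of DBA/2J and of C57BL/6J mice, both inbred laboratory strains. The set held 40 genes, found by symbol among the 50584 gene symbols of the count tables, and all 40 passed the filter on low counts. Every animal was a 14-week-old male, labelled wild type and fed chow, and no infection or treatment is named. There were 2 poly(A) RNA libraries from DBA/2J livers and 2 from C57BL/6J livers, with 48096706 to 52520737 reads assigned to genes in each library. The 40 genes took 0.123% to 0.156% of them. No label says how the mice were housed or in what order they were handled, and with 2 animals a strain any such difference cannot be told apart from strain.

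Type I interferons are cytokines that cells release on sensing viral or bacterial nucleic acid. Type I interferon acts through a receptor whose kinases switch on a complex that holds Stat2 and Irf9 and binds a DNA element called the ISRE, whereas interferon gamma acts mainly through a different element, the GAS. Genes of the IFIT and OAS families are classic type I targets. The guanylate-binding proteins (GBP) and immunity-related GTPases (IRG), which attack vacuoles that hold pathogens, are known above all for their response to interferon gamma, although most such genes answer to both kinds to some degree. In a healthy liver hepatocytes, Kupffer cells and endothelium all carry a low resting level of these transcripts.

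Start-site sequences were taken from RefSeq (GRCm38.p6, a C57BL/6J genome), where 28 of the 40 genes had an entry. The 250 bases before each start were searched on both strands for GAAA, any 2 bases and again GAAA, the core of the ISRE, and for TTCNNNGAA, the core of the GAS; matches to the 2 can overlap each other. The ISRE core stood before 17 of the 28 genes (60.7%), against 3.46% of 27025 genes in the same table. It stood before 6 of 9 IFIT and OAS genes, 6 of 7 GBP and IRG genes and 5 of the 12 others. The GAS core stood before 2 of 9 IFIT and OAS genes (22.2%) and 3 of 7 GBP and IRG genes (42.9%), against 8.13% of all genes in the table. The 250 bases of the 4 genes that differed between the strains in the count test follow, 5′ to 3′ and ending at the base before the start, because these are the genes whose levels the results turn on. Capitals mark the motif matches.
Xaf1, chr11:72301379-72301628, forward strand: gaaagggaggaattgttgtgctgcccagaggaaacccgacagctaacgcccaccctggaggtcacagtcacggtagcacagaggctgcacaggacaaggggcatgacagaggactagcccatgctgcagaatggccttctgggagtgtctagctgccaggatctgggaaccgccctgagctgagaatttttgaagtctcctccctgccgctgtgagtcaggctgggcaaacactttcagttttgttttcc
Gbp3, chr3:142559794-142560043, forward strand: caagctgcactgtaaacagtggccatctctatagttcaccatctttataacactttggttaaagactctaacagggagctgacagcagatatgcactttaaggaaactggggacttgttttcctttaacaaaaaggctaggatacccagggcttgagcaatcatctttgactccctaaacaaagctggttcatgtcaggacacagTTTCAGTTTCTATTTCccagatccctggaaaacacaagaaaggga
Bst2, chr8:71537473-71537722, reverse strand: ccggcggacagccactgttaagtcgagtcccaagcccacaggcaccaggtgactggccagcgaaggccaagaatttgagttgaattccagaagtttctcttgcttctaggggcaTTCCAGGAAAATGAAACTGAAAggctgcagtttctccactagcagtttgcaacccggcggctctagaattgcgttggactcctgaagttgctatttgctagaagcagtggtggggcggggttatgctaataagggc
Trim30a, chr7:104465194-104465443, reverse strand: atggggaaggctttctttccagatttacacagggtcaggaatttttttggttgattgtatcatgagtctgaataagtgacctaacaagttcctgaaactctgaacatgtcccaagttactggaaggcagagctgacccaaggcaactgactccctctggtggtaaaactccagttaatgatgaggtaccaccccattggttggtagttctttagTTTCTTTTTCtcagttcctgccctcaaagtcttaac
Xaf1, the one of the 4 that was higher in DBA/2J, held neither core in this window. Gbp3 and Bst2 each held 2 overlapping ISRE cores, in Bst2 overlapping a GAS core as well, and Trim30a held 1 ISRE core. RefSeq lists a further start for Gbp3 and for Trim30a, with neither core before it.

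The stretches that hold the matches in 7 type I and gamma-type genes are set side by side to show the matches in both classes, each with 15 bases kept on either side where the window allows.
Ifit1, chr19:34640770-34640828, forward strand: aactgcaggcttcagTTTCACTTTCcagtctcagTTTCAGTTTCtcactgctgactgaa
Ifit3, chr19:34583358-34583431, forward strand: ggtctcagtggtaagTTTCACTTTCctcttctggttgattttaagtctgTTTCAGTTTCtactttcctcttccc
Ifit3b, chr19:34607754-34607827, forward strand: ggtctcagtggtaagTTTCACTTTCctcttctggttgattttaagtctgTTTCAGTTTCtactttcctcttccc
Irgm1, chr11:48871421-48871465, reverse strand: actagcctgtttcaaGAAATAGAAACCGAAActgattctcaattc
Igtp, chr11:58199496-58199546, forward strand: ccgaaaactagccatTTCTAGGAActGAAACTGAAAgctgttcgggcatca
Irgm2, chr11:58214887-58214937, forward strand: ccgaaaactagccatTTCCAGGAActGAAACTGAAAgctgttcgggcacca
Gbp7, chr3:142530215-142530307, forward strand: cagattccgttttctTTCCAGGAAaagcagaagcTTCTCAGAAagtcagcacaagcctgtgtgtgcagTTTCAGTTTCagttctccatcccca
Ifit3 and Ifit3b, neighbouring copies on chromosome 19, carried the same stretch letter for letter. Igtp and Irgm2, neighbours on chromosome 11, both carried a GAS core followed by an ISRE core. DBA/2J sequence was not used here, so these letters describe the C57BL/6J reference alone.

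The libraries were those of liver tissue: albumin took 5.91% to 6.82% of counts. In whole liver, fewer cells of a type and less RNA per cell cannot be told apart. Libraries of one strain were further apart than counting noise gives (chi-square over its degrees of freedom 13.7 in DBA/2J and 55.6 in C57BL/6J), and C57BL/6J replicate 1 stood apart by its acute phase RNA. The 7 acute phase genes summed to 7011 and 5851 CPM (counts scaled to library size) in DBA/2J replicates 1 and 2, against 16420.5 and 8055 CPM in C57BL/6J replicates 1 and 2. All 7 were higher in C57BL/6J replicate 1 than in the other C57BL/6J library, and all 7 were also higher in DBA/2J replicate 1 than in DBA/2J replicate 2. The CPM ratio of C57BL/6J replicate 1 to replicate 2 was 14.2 for Saa1, 37.9 for Saa2, 26.3 for Lcn2 and 9.63 for Orm2. That ratio was 1.35 for Orm1, 1.73 for Hp and 1.63 for Fgb. A list of 6 neutrophil genes summed to 0.643 and 0.253 CPM in DBA/2J replicates 1 and 2, against 5.97 and 0.341 CPM in C57BL/6J replicates 1 and 2. Only 2 of the 6 passed the filter on low counts, S100a8 and S100a9, and neither was called. These gave 112 and 133 counts in C57BL/6J replicate 1 against 6 and 7 in C57BL/6J replicate 2. Camp went the other way (1 against 4 counts), and Ly6g was at 0 in DBA/2J replicate 2 and C57BL/6J replicate 2. Of 8 Kupffer cell and macrophage markers 1 was called lower in DBA/2J (Marco), and their sum was 153 and 158 CPM in DBA/2J replicates 1 and 2, against 173 and 134 CPM in C57BL/6J replicates 1 and 2. Of 8 T and NK cell markers Cd4 was called higher, with 355 and 389 counts in DBA/2J replicates 1 and 2 against 68 and 124 in C57BL/6J replicates 1 and 2, while the other 7 had at most 20 counts in any library. The stellate cell list had 6 of 6 fitted values above 0, with Reln and Acta2 called higher, and summed to 187 and 233 CPM in DBA/2J replicates 1 and 2, against 142 and 102 CPM in C57BL/6J replicates 1 and 2. Of 7 sinusoidal endothelium markers Stab2 was called higher (log2 0.40) and Lyve1 lower (-1.16). The part of these cell types in the results was not tested.

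Between the strains, the level of most of these genes did not pass the test. In edgeR's quasi-likelihood test with Benjamini-Hochberg adjustment over all genes, 1 of 40 was higher in DBA/2J (Xaf1) and 3 were lower (Gbp3, Bst2 and Trim30a). That is 10% of the set, where 18.2% of all 15647 tested genes passed (9.29% higher and 8.87% lower). The fitted log2 difference, DBA/2J over C57BL/6J, was below 0 for 28 of the 40 and above 0 for 12, with a median of -0.24 against 0.01 over all tested genes. For 20 of the 40 (50%) the libraries of the strains did not overlap, 4 higher and 16 lower in DBA/2J, where 63.8% of all tested genes (32.5% higher and 31.2% lower) behaved so. The DESeq2 Wald test passed 10 of the 40, against 18.8% of the genes it tested (9.36% higher and 9.47% lower): Xaf1 and Igtp were higher and Gbp3, Ifi47, Irgm1, Bst2, Trim30a, Stat2, Irf9 and Usp18 lower. With either DBA/2J library left out, 0 of the 40 passed in edgeR. Background was then 1.79% without replicate 1 and 1.92% without replicate 2, and the spread rested on the C57BL/6J pair alone. Without C57BL/6J replicate 1 there were 7 calls (background 24.2%), and without C57BL/6J replicate 2 there were 16 (background 29.9%); each included the 4 named above.

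**Figure D1:**
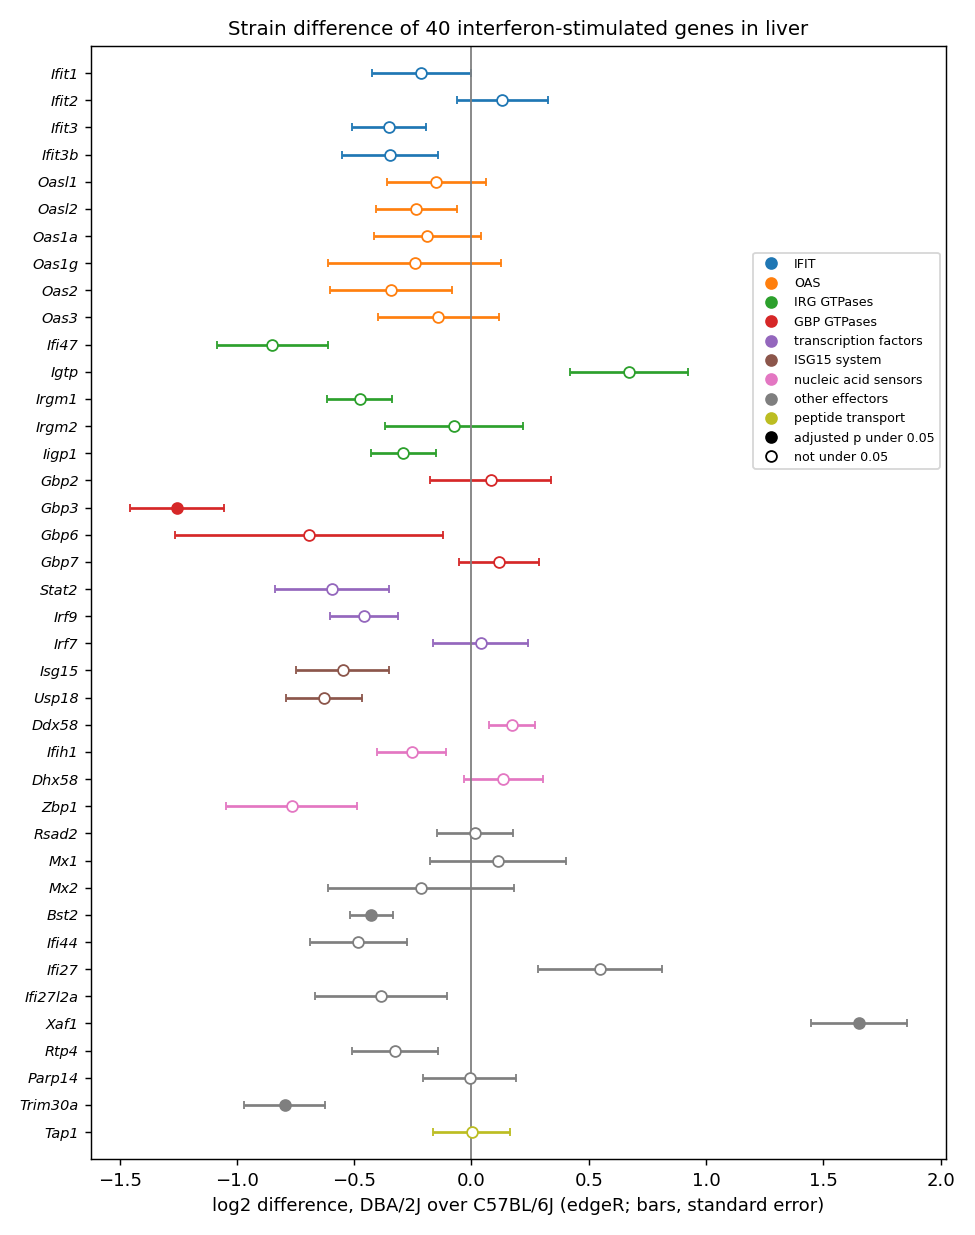
Fitted log2 difference of each of the 40 genes, DBA/2J over C57BL/6J, on the horizontal axis, with its standard error as a bar and the genes grouped by role from top to bottom. Filled points mark the 4 genes with an adjusted p under 0.05: Xaf1 at 1.65 on the right, and Gbp3, Trim30a and Bst2 at -1.25, -0.80 and -0.43 on the left.

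Xaf1 encodes XIAP-associated factor 1, an interferon-induced protein that favours cell death by opposing a caspase inhibitor. The gene spans chr11:72301629-72313733 in GRCm38, on the forward strand. Its counts were 1021 and 1032 in DBA/2J replicates 1 and 2, against 367 and 256 in C57BL/6J replicates 1 and 2. Both DBA/2J libraries stood well above both C57BL/6J libraries, with means of 19.9 ± 1.77 CPM in DBA/2J and 6.33 ± 1.70 CPM in C57BL/6J (SD, n = 2 each). The log2 difference was 1.65 ± 0.20 (SE), or 3.14-fold, with an edgeR adjusted p of 0.0069. With single libraries left out it ran between 1.40 and 1.95, and the adjusted p was 0.102 without DBA/2J replicate 1 and 0.0752 without DBA/2J replicate 2.

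Gbp3, a guanylate-binding protein gene at chr3:142560026-142573209 on the forward strand, was the gamma-type gene with the largest fitted difference. Its counts were 177 and 191 in DBA/2J replicates 1 and 2, against 475 and 362 in C57BL/6J replicates 1 and 2. The DBA/2J pair nearly coincided and lay below both C57BL/6J libraries. Mean levels were 3.56 ± 0.15 CPM in DBA/2J and 8.50 ± 1.76 CPM in C57BL/6J (SD, n = 2 each), a log2 difference of -1.25 ± 0.20 (edgeR adjusted p = 0.0134), 2.39-fold lower in DBA/2J. The call was lost without DBA/2J replicate 1 or 2 (adjusted p = 0.146 each), while the log2 value stayed between -1.45 and -1.03.

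Bst2 encodes tetherin, a membrane protein that holds budding virus particles on the cell surface. The gene spans chr8:71534255-71537456 on the reverse strand and was the most abundant of the 40 genes per length. Its counts were 7882 and 8024 in DBA/2J replicates 1 and 2, against 10315 and 10118 in C57BL/6J replicates 1 and 2. The difference was small but wide of the replicate spread, 154 ± 13.0 CPM in DBA/2J and 207 ± 6.31 CPM in C57BL/6J (SD, n = 2 each). Its log2 value was -0.43 ± 0.09 (edgeR adjusted p = 0.0314). With a total exon length of 903 bases Bst2 is a short gene, and the 1369 tested genes within 1.5 times that length had a median log2 of -0.18, with 16.1% called lower; the part of gene length in the Bst2 difference was not tested. Siglech, which marks the plasmacytoid dendritic cells that also carry Bst2, gave 10 and 6 counts in DBA/2J replicates 1 and 2, against 25 and 8 in C57BL/6J replicates 1 and 2. Its strains overlapped in CPM, at a log2 of -1.10 ± 0.71 (edgeR adjusted p = 0.325). Of the other markers listed for these cells, Ccr9 and Cox6a2 stood at -0.87 and -1.99 and Tcf4 at 0.20, none of them called. The part of these cells in the Bst2 difference was not tested. Bst2 was not called without DBA/2J replicate 1 (adjusted p = 0.151), without DBA/2J replicate 2 (0.243) or with no filter on low counts (0.0689).

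Trim30a encodes a mouse TRIM protein that restrains Toll-like receptor signalling. The gene spans chr7:104409025-104465193 on the reverse strand. Its counts were 159 and 200 in DBA/2J replicates 1 and 2, against 308 and 284 in C57BL/6J replicates 1 and 2. The pairs were tight and apart, at 3.46 ± 0.23 CPM in DBA/2J and 6.01 ± 0.44 CPM in C57BL/6J (SD, n = 2 each). The log2 difference was -0.80 ± 0.17 (edgeR adjusted p = 0.0315), or 1.74-fold lower in DBA/2J. The neighbouring copy Trim30d shares 4.41% of Trim30a's 100-base windows, and reads matching both may go uncounted. The call was lost without DBA/2J replicate 1 (adjusted p = 0.262) or 2 (0.202).

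**Figure D2:**
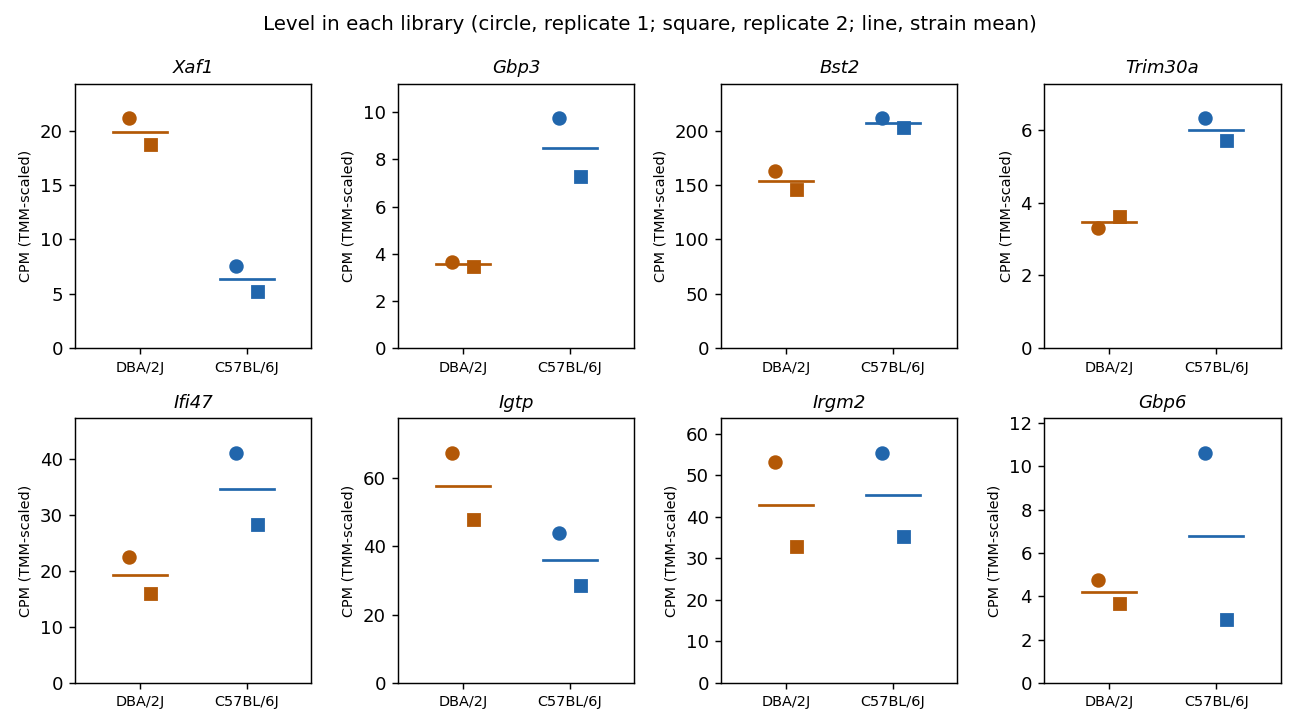
Level of 8 genes in each library on the vertical axis, in CPM from 0, with the DBA/2J libraries left of the C57BL/6J libraries and a line at each strain's mean. In the upper row (Xaf1, Gbp3, Bst2, Trim30a) the strains stand apart; in the lower row Ifi47 and Igtp differ in opposite directions, Irgm2 overlaps, and Gbp6 reaches 10.6 CPM in C57BL/6J replicate 1 against 2.91 CPM in C57BL/6J replicate 2.

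The type I class held 4 IFIT genes, whose products bind viral RNA and block its translation, and 6 OAS genes, most of which encode enzymes that make the oligoadenylates that activate RNase L. Of these 10, edgeR and DESeq2 each called 0, beside 18.2% and 18.8% of all genes they tested. An unadjusted edgeR p under 0.05 was found for 0 of the 10, where 35.4% of all tested genes had one. The fitted log2 values lay between -0.35 and 0.13 with a median of -0.22, and 9 of the 10 were below 0. Their standard errors were 0.16 to 0.37.

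Ifit3 and Ifit3b had the lowest fitted values of the class, and each had the libraries of the strains apart. Ifit3 had 9.35 and 8.01 CPM in DBA/2J replicates 1 and 2, against 10.01 and 12.1 CPM in C57BL/6J replicates 1 and 2. Its log2 value was -0.35 ± 0.16 (edgeR adjusted p = 0.179), and it passed only without C57BL/6J replicate 1 (-0.49, adjusted p = 0.0447). Ifit3b stood at -0.35 ± 0.20 (edgeR adjusted p = 0.281). These copies share 31.7% of the 100-base windows of Ifit3 and 27.4% of those of Ifit3b, as Oas1a and Oas1g share 40.9% and 31.2% of theirs, so part of their reads cannot be assigned to either copy. Ifit1 and Ifit2 overlapped between the strains, with log2 values of -0.21 and 0.13.

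Among the OAS genes, Oasl1, whose mouse product holds back translation of Irf7, had the highest level per length. It had 12.5 and 8.79 CPM in DBA/2J replicates 1 and 2, against 10.4 and 13.1 CPM in C57BL/6J replicates 1 and 2, and the strains overlapped. Oas2 and Oasl2 stood at -0.34 and -0.23, Oas1g, Oas1a and Oas3 at -0.24, -0.19 and -0.14. Adjusted p values over the OAS genes ran from 0.385 to 0.738.

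The gamma-type class held 5 IRG and 4 GBP genes. Its fitted log2 values spanned -1.25 to 0.67 with a median of -0.29; 1 of 9 was called (Gbp3, lower), and 4 had an unadjusted p under 0.05, beside 18.2% and 35.4% of all tested genes. Ifi47, an IRG effector, had 22.6 and 15.9 CPM in DBA/2J replicates 1 and 2, against 41.1 and 28.2 CPM in C57BL/6J replicates 1 and 2. Its log2 value of -0.85 ± 0.24 missed the threshold (edgeR adjusted p = 0.0604), although the strains did not overlap. Irgm1, which regulates the other IRG proteins and autophagy, had 53.8 and 43.8 CPM in DBA/2J replicates 1 and 2, against 73.9 and 61.8 CPM in C57BL/6J replicates 1 and 2. It also missed the threshold, at -0.48 ± 0.14 (edgeR adjusted p = 0.0672). Igtp, another regulatory IRG gene, differed the other way, with 67.3 and 47.7 CPM in DBA/2J replicates 1 and 2 and 43.9 and 28.2 CPM in C57BL/6J replicates 1 and 2. Its log2 value was 0.67 ± 0.25 (edgeR adjusted p = 0.119), and without C57BL/6J replicate 1 it was called at 1.02 (adjusted p = 0.0059). Without C57BL/6J replicate 2, Ifi47 and Irgm1 were called lower at -1.10 and -0.60, as were Iigp1 at -0.44 and Gbp6 at -1.35.

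Irgm2 shares annotated exon sequence with Igtp (5.16% of Igtp's windows and 3.01% of Irgm2's), and its strains overlapped, with 53.2 and 32.6 CPM in DBA/2J replicates 1 and 2 against 55.4 and 35.0 CPM in C57BL/6J replicates 1 and 2. In both strains replicate 1 was the higher library. Iigp1, the effector that coats parasite vacuoles, was the most abundant gamma-type gene, with 346.7 and 301.6 CPM in DBA/2J replicates 1 and 2, against 440.7 and 352.1 CPM in C57BL/6J replicates 1 and 2. Its log2 value was -0.29 ± 0.14 (edgeR adjusted p = 0.202). Gbp2 and Gbp7 stood at 0.08 and 0.12 with overlapping strains. Gbp6 stood at -0.69 ± 0.57, and 64.5% of its 100-base windows also occur in other annotated transcripts, mostly those of the overlapping Gm43302, so its counts cover only part of the gene. Exons that overlap another annotated gene made up 29% of Gbp6, 8.0% of Igtp and 8.8% of Ifi47.

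The 2 classes were set side by side library by library, with no test between them. Each gene's log2(CPM + 0.5) was set against its own mean over the 4 libraries, and the median taken over the class. For the IFIT and OAS genes this median was -0.04 and -0.16 in DBA/2J replicates 1 and 2, against 0.05 and 0.09 in C57BL/6J replicates 1 and 2. For the GBP and IRG genes it was -0.03 and -0.37 in DBA/2J replicates 1 and 2, against 0.36 and -0.23 in C57BL/6J replicates 1 and 2. The IFIT and OAS medians did not overlap between the strains, although the DBA/2J pair lay further apart than the gap to C57BL/6J, and the GBP and IRG medians overlapped.

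C57BL/6J replicate 1 exceeded C57BL/6J replicate 2 for 9 of 9 GBP and IRG genes and 3 of 10 IFIT and OAS genes, where this held for 48.3% of all tested genes. In DBA/2J, replicate 1 exceeded replicate 2 for 9 of 9 and 7 of 10, where this held for 48.9% of all tested genes. Without C57BL/6J replicate 1 the median log2 difference of the GBP and IRG genes was 0.29 in place of -0.29, while that of the IFIT and OAS genes was -0.20. In C57BL/6J 11 of the 40 genes differed by over 1.5 times between replicates (19.6% of all tested genes did), 4 of them GBP and IRG genes and 1 an OAS gene; in DBA/2J it was 1 of 40, against 10.7%. C57BL/6J replicate 1 was also the library with the highest sums of acute phase and neutrophil genes, given above. The same held for the Kupffer cell, B cell, cholangiocyte and hepatocyte lists. It held too for the plasmacytoid dendritic cell list, where Bst2 made up 211.6 of the 226.7 CPM in that library. C57BL/6J replicate 1 exceeded replicate 2 for 8 of 8 Kupffer cell, 4 of 4 B cell and 4 of 4 cholangiocyte markers. The same was so for 4 of 5 plasmacytoid dendritic cell, 6 of 7 endothelial, 5 of 6 stellate and 3 of 6 hepatocyte markers. The stellate and endothelial lists had their highest sum in a DBA/2J library. So did the T and NK cell list, but Cd4 made up 7.36 of its 7.90 CPM in DBA/2J replicate 1. Its other markers had low counts. In C57BL/6J replicates 1 and 2 Gzma gave 20 and 1, Cd3g 17 and 5, Nkg7 18 and 9 and Cd8a 11 and 3. Cd3e gave 8 and 3 there and Ncr1 6 and 1, while Klrb1c went the other way with 6 and 9. The part of any of these lists in the gamma-type values was not tested.

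**Figure D3:**
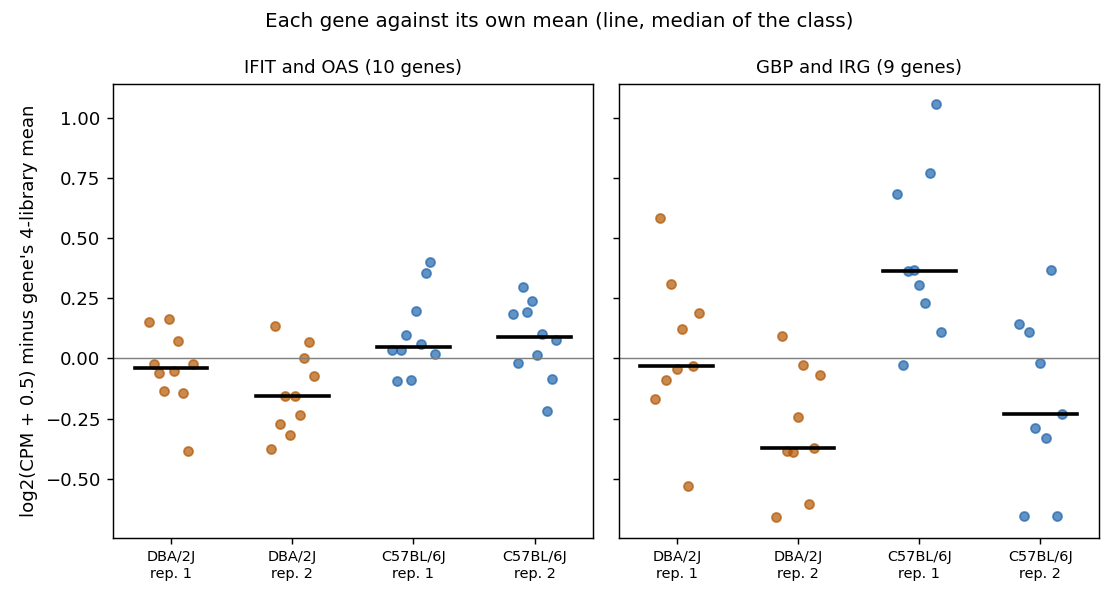
Each point is 1 gene's log2(CPM + 0.5) minus its own mean over the 4 libraries, with the 10 IFIT and OAS genes in the left panel and the 9 GBP and IRG genes in the right, libraries along the horizontal axis and a line at the class median. The lines on the left lie between -0.16 and 0.09, whereas on the right C57BL/6J replicate 1 is at 0.36 and C57BL/6J replicate 2 at -0.23.

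Of the transcription factors, Stat2 and Irf9, which act together at the ISRE, had lower fitted values in DBA/2J without passing the test. Stat2 had 109 and 95.7 CPM in DBA/2J replicates 1 and 2, against 195 and 115 CPM in C57BL/6J replicates 1 and 2. The single high library was C57BL/6J replicate 1, and the log2 value was -0.59 ± 0.24 with all libraries (edgeR adjusted p = 0.146), -0.17 without it and -0.93, called, without C57BL/6J replicate 2. Irf9 had 45.6 and 37.9 CPM in DBA/2J replicates 1 and 2, against 63.5 and 51.1 CPM in C57BL/6J replicates 1 and 2 (-0.46 ± 0.14, edgeR adjusted p = 0.0815), and was called at -0.61 without C57BL/6J replicate 2. Irf7, the factor that amplifies type I interferon production, overlapped between the strains at a log2 of 0.04 ± 0.20.

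Isg15, a ubiquitin-like protein that is attached to other proteins in infected cells, and Usp18, the protease that removes it and damps receptor signalling, had strains that did not overlap. Isg15 had 9.51 and 6.71 CPM in DBA/2J replicates 1 and 2, against 12.6 and 11.1 CPM in C57BL/6J replicates 1 and 2. Its log2 was -0.55 ± 0.20 (edgeR adjusted p = 0.111), and -0.64 without C57BL/6J replicate 2. Isg15 is a short gene too, with 756 exon bases. The 1071 tested genes within 1.5 times that length had a median log2 of -0.18, with 16.2% called lower. The part of gene length in the Isg15 difference was not tested. Usp18 had 8.75 and 6.78 CPM in DBA/2J replicates 1 and 2, against 11.7 and 12.2 CPM in C57BL/6J replicates 1 and 2. At -0.63 ± 0.16 Usp18 stood just outside the threshold (edgeR adjusted p = 0.0502), and it passed in DESeq2 (adjusted p = 0.0203) and when either C57BL/6J library was left out (0.0256 and 0.0333).

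Of the 4 nucleic acid sensors, edgeR and DESeq2 each called 0, beside 18.2% and 18.8% of all genes they tested. Ddx58, which encodes RIG-I, had 37.2 and 33.4 CPM in DBA/2J replicates 1 and 2, against 30.2 and 32.4 CPM in C57BL/6J replicates 1 and 2, with a log2 of 0.18 ± 0.10 (edgeR adjusted p = 0.262). Ifih1, which encodes MDA5, and Dhx58, the related regulator LGP2, stood at -0.25 ± 0.15 and 0.14 ± 0.17. Zbp1, a sensor of Z-form nucleic acid that can trigger cell death, had 5.56 and 3.92 CPM in DBA/2J replicates 1 and 2, against 9.79 and 6.31 CPM in C57BL/6J replicates 1 and 2. Its strains did not overlap, and its log2 of -0.77 ± 0.28 did not pass (edgeR adjusted p = 0.114); it was -1.05, called, without C57BL/6J replicate 2. Tap1, the peptide transporter subunit of the MHC class I pathway, stood at 0.0024 ± 0.16.

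Among the remaining effectors, Ifi27, a small mitochondrial and nuclear envelope protein gene, had 148 and 124 CPM in DBA/2J replicates 1 and 2, against 67.2 and 119 CPM in C57BL/6J replicates 1 and 2. C57BL/6J replicate 1 was the low library here, the reverse of its place for the GBP and IRG genes. The log2 value was 0.55 ± 0.26 (edgeR adjusted p = 0.204) and 0.19 without that library; it was called at 1.02 without C57BL/6J replicate 2. Mx2, a dynamin-like antiviral GTPase gene, had 18.2 and 13.2 CPM in DBA/2J replicates 1 and 2, against 25.5 and 10.9 CPM in C57BL/6J replicates 1 and 2. Both DBA/2J libraries lay between those of C57BL/6J, and Mx2 was called lower at -0.70 only without C57BL/6J replicate 2. Rsad2 (viperin), Parp14 and Mx1 stood at 0.015, -0.007 and 0.11 with overlapping strains. Rtp4, Ifi27l2a and Ifi44 stood at -0.33, -0.39 and -0.48, with edgeR adjusted p values of 0.26, 0.38 and 0.16; Rtp4 was called at -0.52 without C57BL/6J replicate 2.

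**Figure D4:**
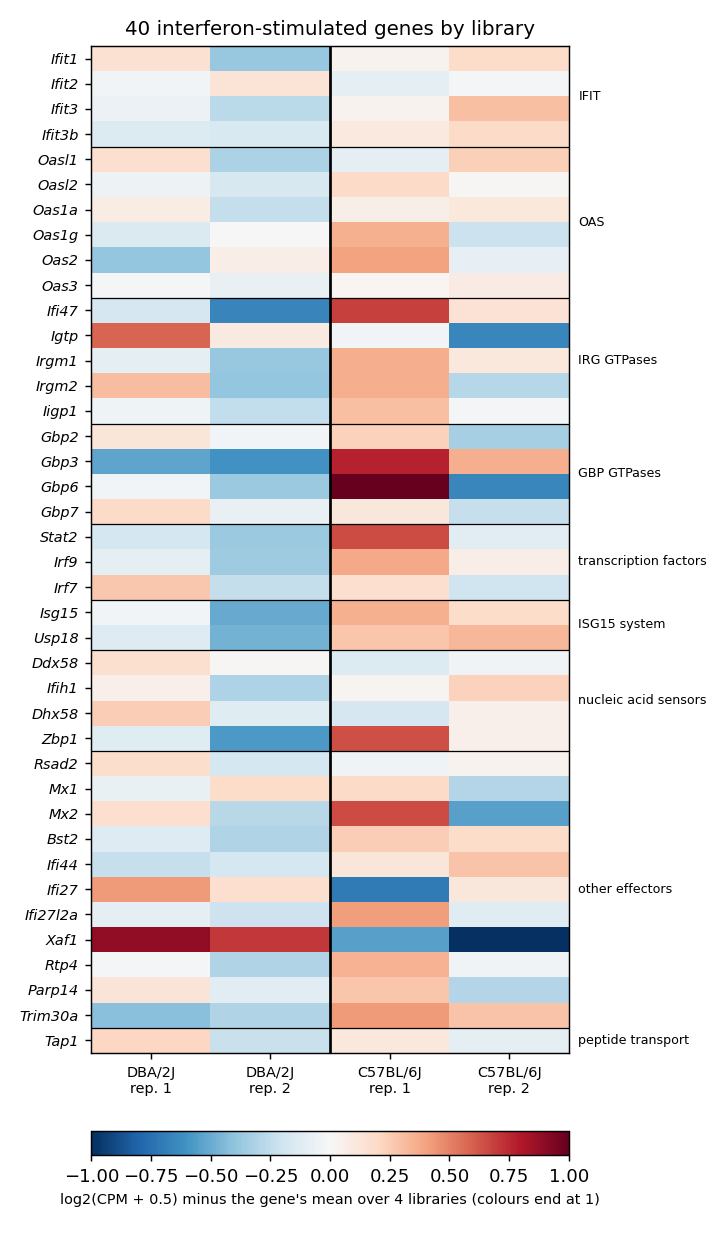
Each cell shows 1 gene's log2(CPM + 0.5) in 1 library minus that gene's mean over the 4 libraries, red above and blue below, with the 40 genes in rows by role and the DBA/2J libraries in the 2 left columns. Xaf1 is red in both DBA/2J libraries and Gbp3 and Trim30a blue; C57BL/6J replicate 1 is red for Gbp6, Stat2, Mx2 and Zbp1.

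Levels between genes were compared per length, as CPM per kilobase of annotated exon averaged over the 4 libraries. Bst2 led at 200.1, followed by Iigp1 at 115 and Ifi27 at 78.1, and the median of the 40 genes was 4.19. The IRG genes ranged from 10.04 to 115, the GBP genes from 0.92 to 2.31, the IFIT genes from 0.857 to 5.66 and the OAS genes from 0.168 (Oas3) to 4.29. Annotated exon length can exceed that of any single transcript, which lowers these values. The place of Bst2 ahead of Iigp1 held in both strains, at 171 against 104 in DBA/2J and 229 against 127 in C57BL/6J.

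Other genes of the pathway were taken from a list of 113. Of 21 interferon genes, 19 were at 0 in every library and the other 2, Ifng and Ifnk, had at most 3 counts in any; a count of 3 corresponds to 0.0571 to 0.0624 CPM of library totals. None could be tested. Of 9 receptor and kinase genes 0 were called by edgeR, beside 18.2% of all tested genes. An unadjusted edgeR p under 0.05 was found for 2 of the 9, beside 35.4% of all tested genes. The type I receptor genes Ifnar1 and Ifnar2 stood at 0.15 ± 0.09 and -0.01 ± 0.18, the gamma receptor genes Ifngr1 and Ifngr2 at -0.10 ± 0.13 and -0.38 ± 0.11, and the kinase genes Jak1, Jak2 and Tyk2 at 0.06, 0.36 and 0.04. Irf1, a factor induced by interferon gamma, gave 2108 and 2467 counts in DBA/2J replicates 1 and 2, against 5827 and 2151 in C57BL/6J replicates 1 and 2 (-0.88 ± 0.44, edgeR adjusted p = 0.213). Irf3, which starts interferon transcription after nucleic acid sensing, was lower in DBA/2J at -0.55 ± 0.10 (edgeR adjusted p = 0.017).

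Across the 113 genes 84 were tested, 2 were higher and 12 lower in DBA/2J (16.7% called, beside 18.2% of all tested genes), with a median log2 of -0.17. Of 28 other type I responsive genes, 9 were lower and 0 higher (32.1% called), where 8.87% of all tested genes were lower and 9.29% higher. Mndal, of the Ifi200 family of DNA-binding proteins on chromosome 1, gave 5 and 9 counts in DBA/2J replicates 1 and 2, against 487 and 366 in C57BL/6J replicates 1 and 2. Its log2 was -5.98 ± 0.34 (edgeR adjusted p = 0.000684), and its family members Ifi203 and Ifi204 were lower at -1.37 ± 0.22 and -1.42 ± 0.32. Lower too were the antiviral membrane protein gene Ifitm3 (-0.75), the RNA exonuclease gene Isg20 (-1.61), the ADP-ribosyltransferase gene Parp9 (-0.64), and Trim34a (-1.03), Nmi (-0.44) and Tdrd7 (-0.65).

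Of 15 tested gamma-type responsive genes outside the GBP and IRG families, Tap2 was higher (0.50 ± 0.13), and the immunoproteasome gene Psmb10 (-0.69 ± 0.16) and the serpin gene Serpina3g (-2.16 ± 0.53) were lower. Cxcl10, a T cell attractant, gave 89 and 106 counts in DBA/2J replicates 1 and 2, against 2231 and 169 in C57BL/6J replicates 1 and 2, and was not called (edgeR adjusted p = 0.0783). Of 13 tested other GBP and IRG family genes, Gm12250 was higher in DBA/2J, with 204 and 164 counts in DBA/2J replicates 1 and 2 against 79 and 46 in C57BL/6J replicates 1 and 2 (1.5 ± 0.35, edgeR adjusted p = 0.038). Within that list C57BL/6J replicate 1 exceeded replicate 2 for 12 of 13. Gbp11 gave 5186 and 3967 counts in DBA/2J replicates 1 and 2, against 3177 and 312 in C57BL/6J replicates 1 and 2, and was not called (edgeR adjusted p = 0.361). Of these 14 calls, Mndal alone held without DBA/2J replicate 1 and without DBA/2J replicate 2 (largest adjusted p 0.0236). With no filter on low counts 7 of the 14 held (Ifi203, Ifitm3, Irf3, Isg20, Mndal, Parp9 and Tdrd7).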

How the data were processed

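Poly(A) RNA from the livers of 4 mice was sequenced as single-end reads of 100 bases, to about 51 M reads a sample, per the labels' protocols. The deposited values are raw whole-number counts of reads for each gene symbol. featureCounts 2.0.1 assigned reads to annotated exons (Ensembl 88, GRCm38) with a paired-end option set, per the file headers. Per the submitters' processing notes, STAR 2.4.0g1 and featureCounts 1.5.2 were used. No option for strand or for reads with several alignments is named. Reads of both strains went to a C57BL/6J-derived reference, so DBA/2J reads that differ from it can be lost. Total exon length per symbol was also taken from the deposited files.

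Counts were tested with edgeR 4.0.16 (R 4.3.3; glmQLFit with legacy=FALSE, TMM scaling, filterByExpr with a minimum count of 10, strain as the only term) and called at an adjusted p under 0.05. CPM used TMM-scaled library sizes, and standard errors came from the F statistic. DESeq2 1.42.0, other scalings and filters, and fits without each library were alternatives. The fit was tested on simulated counts. Shared 100-base windows were counted in GENCODE M21 transcripts. The 40 genes, their classes and the related and marker lists were chosen with earlier results of these data known. All 40 may be named; values per library are given for called genes and for genes of at least 5 CPM with non-overlapping strains. Oasl1, Irgm2, Gbp6 and Mx2, and Cxcl10 and Gbp11 of the related lists, were added after their values were seen. From the related lists, called genes and preset receptor, kinase and factor genes are named, and 1 of these is not reported here. The series' design speaks of 2 mice per strain, so p-values measure the spread between 2 animals each.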

Additional observations from a re-analysis of the deposited data

How the results depend on the processing

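Calls rested on the libraries. With each library left out in turn, genes of the 40 called higher numbered 0 to 2 and genes called lower 0 to 14 (1 and 3 with all 4 libraries); lower IFIT and OAS genes numbered 0 to 1, higher GBP and IRG genes 0 to 1 and lower GBP and IRG genes 0 to 5. The share of all genes called was 24.2% without C57BL/6J replicate 1, where 7 of the 40 were called, and 29.9% without C57BL/6J replicate 2, where 16 were. A strain left with 1 library is assumed to vary like the other. The median log2 of the IFIT and OAS genes ran from -0.34 to -0.14 and that of the GBP and IRG genes from -0.49 to 0.29, 0.29 being the value without C57BL/6J replicate 1. The DESeq2 Wald test called 2 of the 40 higher and 8 lower, with 1 higher and 3 lower in the GBP and IRG class. Of all genes it tested, 9.36% were higher and 9.47% lower. Scaling by library totals put the IFIT and OAS median at -0.15 and the median of all genes at 0.09; no other scaling, filter or quasi-likelihood form moved a count of calls among the 40 by over 1.5 times. Without a low-count filter 1516 of 25810 genes were called in place of 2842 of 15647, since many more genes entered the adjustment. With the replicate block, 2 of the 40 were higher and 6 lower (1 and 3 in the GBP and IRG class). Of all tested genes 15.3% then passed, 7.8% higher and 7.51% lower. Igtp, Ifi47, Irgm1, Irf9 and Zbp1 were added by the block and Trim30a was lost (edgeR adjusted p = 0.0569). Of the 14 related genes called, 7 were lost with no low-count filter, Nmi, Tap2 and Trim34a with the block, Nmi and Trim34a by library totals, Tap2 with DESeq2's size factors and Trim34a in the legacy quasi-likelihood form. The numbers share no stated source, and same-numbered libraries deviated together at r = 0.017 over all tested genes. That value is over all genes and does not describe a single class. Replicate 1 exceeded replicate 2 for 9 of 9 GBP and IRG genes in both strains. For the IFIT and OAS genes it did so for 7 of 10 in DBA/2J and 3 of 10 in C57BL/6J. Whether the numbers pair the samples was not tested further, and the main fit has strain as its only term.

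Fitted values changed sign in 28 of 440 combinations of a gene and an alternative, none of them called. Tap1 was -0.0027 in DESeq2, -0.0018 with its size factors and -0.0097 with the block, and Parp14 was 0.072 by library totals and 0.016 with the block. With single libraries left out the log2 ranges of the genes that changed sign were Ifit1 -0.53 to 0.037, Oasl1 -0.44 to 0.078, Oas1g -0.60 to 0.23, Irgm2 -0.49 to 0.29, Gbp2 -0.21 to 0.43, Gbp6 -1.35 to 0.52, Gbp7 -0.051 to 0.30, Irf7 -0.26 to 0.27, Dhx58 -0.080 to 0.31, Rsad2 -0.20 to 0.18, Mx1 -0.16 to 0.44, Mx2 -0.70 to 0.52, Parp14 -0.27 to 0.30 and Tap1 -0.25 to 0.20. The cause was not tested. The lowest counts of the 40 were those of Oas1g, 40 to 70 a library.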
